A study of Mus musculus with 11 samples.

Results

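The genes described here are 6 components of the inflammasome and of pyroptosis: the sensors Nlrp3 and Nlrc4, the adaptor Pycard, the caspases Casp1 and Casp4, and the pore-forming protein gene Gsdmd. They were chosen by name, and all 6 were found among the 36529 genes that the count files list by symbol. BV2 cells, which are immortalized mouse microglia of the labelled strain C57BL/6, were treated for 5 h with 25 µg/ml of an amino-terminal fragment of human apolipoprotein E that holds residues 1 to 151. The fragment came in an ApoE4 form (nApoE4, 3 samples, group ApoE4) and an ApoE3 form (nApoE3, 2 samples, group ApoE3), which carry a histidine tag and differ by an arginine in place of a cysteine. Each had its own controls, ControlA for nApoE4 (3 samples) and ControlB for nApoE3 (3 samples), labelled as untreated. The protocol in the labels names a PBS vehicle for the controls and the study's methods name conditioned media, so it is not settled which was added. All 11 samples are of a single immortal line, and nothing in the labels states that replicates were separate cultures, so p-values measure the spread between these samples only. Since each fragment was run with its own controls, fragment and experiment cannot be told apart in any comparison of the treated groups.

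Inflammasomes are protein platforms that assemble in the cytosol of macrophages and microglia after a sensor detects microbial or damage signals. The sensor recruits caspase-1, often through the adaptor ASC, the product of Pycard. Caspase-1 then matures interleukin-1β and interleukin-18 and cleaves gasdermin D, whose released part forms pores in the plasma membrane and leads to the lytic death called pyroptosis. Mouse caspase-11, the product of Casp4, binds lipopolysaccharide in the cytosol and cleaves gasdermin D directly. Assembly is classically preceded by priming, in which inflammatory signalling raises the transcripts of Nlrp3 and of pro-interleukin-1β. The counts below measure transcripts and hold no information on assembly, cleavage or death.

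The samples held 39732710 to 44162511 counts in the nApoE4 experiment and 55809688 to 69768666 in the nApoE3 experiment, and 3 counts, taken as the smallest level a library could show, correspond to 0.0430 to 0.0755 CPM, a count scaled to library size, which covers counting error only. Levels are given as CPM scaled with TMM factors over the 11 libraries, but sums over markers are in CPM without these factors. ControlA replicate 2 stood apart, with chi-square per degree of freedom over genes of 25.8 and 47.9 against its fellow controls, which differed from each other by 7.85, so the members' results that rest on it are given with and without it where they move. The pan-macrophage markers Csf1r, Cd68, Itgam, Ptprc and Spi1 had 3649 to 54840 counts in every library, while Cx3cr1, a marker of resting microglia, had 3 to 43 counts. P2ry12 was listed at 0 counts throughout in a locus that overlaps another gene, so its 0 is not read as a level. The 11 microglial markers together summed to 2962 to 2972 CPM in ControlA, 2999 to 3117 in ApoE4, 2182 to 2269 in ControlB and 2380 to 2390 in ApoE3. Of 26 markers of other cell types, 12 had at most 3 counts in every library and 3, Slc1a2 and Mbp among them, exceeded 100 counts in some library. The sum of the 4 astrocyte markers, most of it Slc1a2, was higher with treatment, from 1.22 to 1.49 CPM in ControlA to 5.91 to 7.06 in ApoE4 and from 1.06 to 1.24 in ControlB to 3.996 to 4.18 in ApoE3, with Gfap at 0 to 4 and Aqp4 at 0 to 1 counts. The part of these markers in the results was not tested. In bulk RNA, more cells that express a gene and more transcript per cell cannot be told apart.

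With both fragments the transcripts of Nlrp3 and Casp4 rose steeply, Casp1 rose 2.08-fold and 2.40-fold, and Gsdmd rose slightly. Nlrc4 fell with nApoE4 and did not pass the test with nApoE3. Pycard was near the detection floor in every group. With nApoE4, 4 of the 5 members that could be tested were higher and 1 was lower at an adjusted p under 0.05 in edgeR's quasi-likelihood test, where 57.2% of the 14240 genes tested were called (28.6% higher and 28.6% lower). The median log2 fold change of these 5 members was 1.06, beside 0.0013 over all genes tested. With nApoE3, 4 of 6 members were higher, none was lower and 2 were not called, where 67.7% of 14817 genes were called (33.1% higher and 34.6% lower), and the median of the 6 was 0.90 beside -0.0026 over all genes. Most genes tested were called in both comparisons, so the description of the members rests on the sizes of their changes. A fitted change of more than 2-fold was seen for 3 members with each fragment, namely Nlrp3, Casp4 and Casp1. Casp1 with nApoE4 lay at this limit. The 95% interval of its log2 fold change was 0.83 to 1.28, and its values over all fits ranged from 0.99 to 1.17, where 2-fold is 1.

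**Figure D1:**
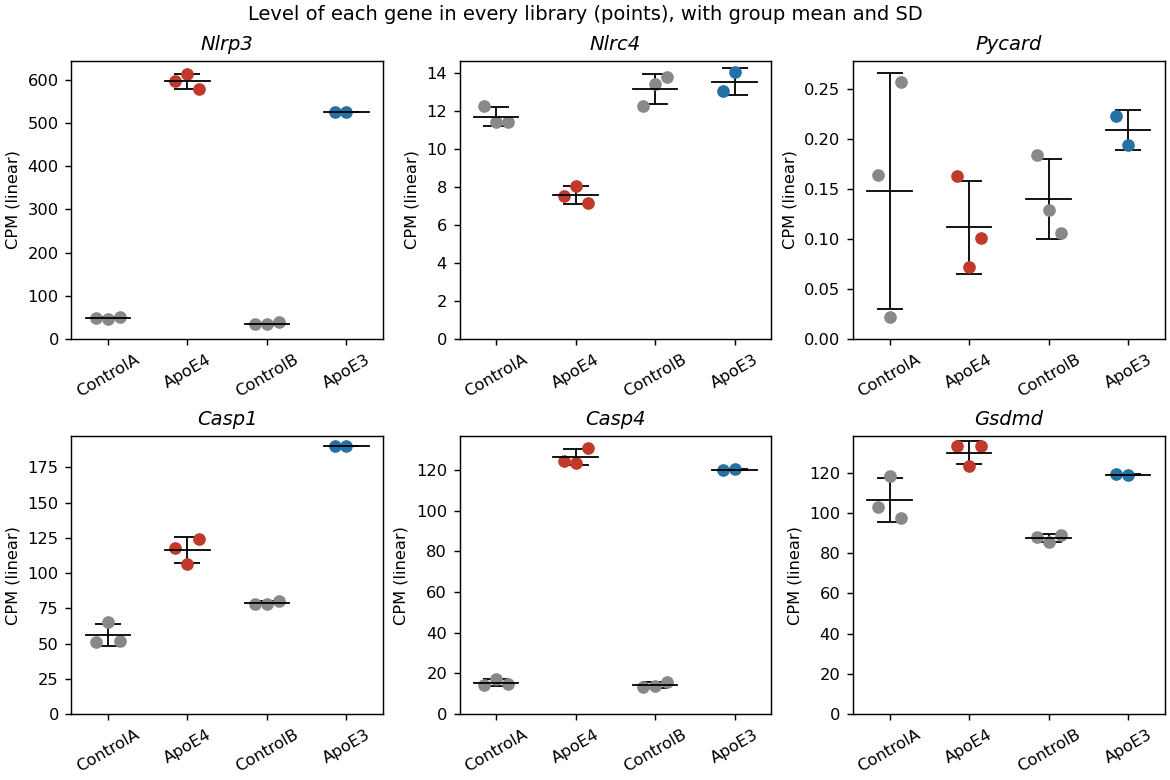
Level of each of the 6 genes in every library on a linear CPM axis that starts at 0 (points), with the group mean and SD (bars), for ControlA, ApoE4, ControlB and ApoE3. Nlrp3, Casp1 and Casp4 of treated and control libraries lie far apart in both experiments, Nlrc4 is low in ApoE4 alone, and all Pycard points lie below 0.26 CPM.

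Nlrp3 (Entrez 216799, GRCm38.p6 chr11:59541569-59566955, plus strand) encodes the sensor that responds to potassium efflux, crystals and other disturbances. Its level was 48.9, 46.6 and 50.3 CPM in the ControlA libraries and 598, 613 and 578 CPM in the ApoE4 libraries. In the nApoE3 experiment it was 34.4, 34.1 and 38.4 CPM in ControlB and 525.5 and 524.5 CPM in ApoE3. Every treated library thus stood more than 10 times above every control library, and the treated libraries of each fragment differed little among themselves. The log2 fold change was 3.62 with nApoE4 (SE 0.069, edgeR adjusted p = 4.23e-10), a 12.3-fold rise. With nApoE3 it was 3.88 (SE 0.038, edgeR adjusted p = 1.93e-15), a 14.7-fold rise.

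The sequences upstream of Nlrp3, Casp4 and Casp1, the 3 members with a fitted rise of more than 2-fold with both fragments, are shown. Whether any motif relates to these changes was not tested. Each sequence holds the 250 bases before a RefSeq transcript start, 5′ to 3′ along the plus strand of GRCm38.p6. Nlrp3 is shown at the start whose window holds a match. Capitals mark matches on either strand to the kappaB consensus, the binding motif of NF-κB, a family of transcription factors with a classical role in priming.
Nlrp3 chr11:59541319-59541568: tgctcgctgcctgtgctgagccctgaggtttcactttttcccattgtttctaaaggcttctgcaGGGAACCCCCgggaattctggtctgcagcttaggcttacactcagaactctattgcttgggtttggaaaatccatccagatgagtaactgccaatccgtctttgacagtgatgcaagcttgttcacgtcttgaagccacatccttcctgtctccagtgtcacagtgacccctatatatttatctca
Casp4 chr9:5308599-5308848: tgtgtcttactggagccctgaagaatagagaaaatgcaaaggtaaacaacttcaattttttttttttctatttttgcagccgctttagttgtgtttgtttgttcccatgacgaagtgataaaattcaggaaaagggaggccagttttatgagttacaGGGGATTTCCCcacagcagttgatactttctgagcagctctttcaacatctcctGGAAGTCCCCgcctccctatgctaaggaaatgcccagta
Casp1 chr9:5298267-5298516: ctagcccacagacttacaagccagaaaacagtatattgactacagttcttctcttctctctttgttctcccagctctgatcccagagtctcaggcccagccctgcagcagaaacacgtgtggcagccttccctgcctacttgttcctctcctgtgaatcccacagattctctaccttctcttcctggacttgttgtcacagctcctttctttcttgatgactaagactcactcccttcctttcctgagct
The Nlrp3 window held 1 match, GGGAACCCCC, 186 to 177 bases before the start. The Casp4 window held overlapping matches that together read GGGGATTTCCC, 93 to 83 bases before the start, and a separate match, GGAAGTCCCC, 39 to 30 bases before it. The Casp1 window held none. A match to this consensus occurred in 7.25% of the 32851 windows of the same length in the table. RefSeq windows were found for 5 of the 6 members, all but Gsdmd, and the windows of Nlrc4 and Pycard and a later Nlrp3 start held no kappaB match either. The core of the interferon-stimulated response element (2.98% of all windows), the STAT motif TTCNNNGAA (7.02%) and the AP-1 motif TGANTCA (6.75%), searched on both strands, matched in no window of these 5 members. The core GAGGAA of the myeloid factor PU.1, present in 23.3% of all windows, matched upstream of Casp1, Pycard and the later Nlrp3 start. These matches describe letters, and no binding was measured.

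Nlrc4 (Entrez 268973, chr17:74426255-74459144, minus strand) encodes the hub that oligomerizes when NAIP proteins bind bacterial flagellin or secretion-system proteins. Its level was 12.3, 11.4 and 11.5 CPM in ControlA and 7.53, 8.08 and 7.18 CPM in ApoE4, so that every nApoE4 library was below every control. In the nApoE3 experiment it was 12.3, 13.4 and 13.8 CPM in ControlB and 13.1 and 14.1 CPM in ApoE3, and these groups overlapped. With nApoE4 the transcript fell by 0.62 on the log2 scale (SE 0.085, edgeR adjusted p = 0.000175), and it was the only member called lower in either comparison. With nApoE3 the log2 fold change was 0.039 (95% interval -0.096 to 0.17, edgeR adjusted p = 0.601). These levels rest on 285 to 867 counts per library.

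Pycard (Entrez 66824, chr7:127991373-127993867, minus strand) encodes ASC, the adaptor that joins NLRP3 to caspase-1 and forms the visible speck of an active inflammasome. It was counted 7, 1 and 12 times in the ControlA libraries and 7, 3 and 4 times in ApoE4. In ControlB it was counted 13, 8 and 6 times and in ApoE3 13 and 11 times. At 1 to 13 counts, or 0.0223 to 0.257 CPM, the libraries lie around the floor of 3 counts. The ApoE4 libraries lay within the range of ControlA, and the ApoE3 libraries lay barely above those of ControlB in CPM, with counts that overlapped. The gene had too few counts to be tested with nApoE4. With nApoE3 its log2 fold change was 0.54, with an interval of -0.39 to 1.47 that includes no change (edgeR adjusted p = 0.278). When every gene with at least 1 count was kept, the nApoE4 value was -0.41, with an interval of -1.76 to 0.94. A predicted gene, Gm45205 in GENCODE, overlaps this locus but has no entry under that symbol in the count files, and no RefSeq gene overlaps it. The annotation and strand setting used for counting are not given in the sources used here, and the reason for the low counts was not tested. Reads set aside as ambiguous made up 3.24 to 3.56% of all tallied reads.

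Casp1 (Entrez 12362, chr9:5298517-5307281, plus strand) and Casp4 (Entrez 12363, chr9:5308849-5336791, plus strand) are paralogues that lie side by side with 1567 bases between them. Casp1 encodes the protease of the canonical inflammasome. Its level was 50.8, 65.1 and 52.0 CPM in ControlA and 118, 106 and 124 CPM in ApoE4. In ControlB it was 78.4, 78.3 and 80.0 CPM and in ApoE3 190.0 CPM in both libraries. Treated and control libraries did not overlap in either experiment, and the ControlB libraries stood above all ControlA libraries. The log2 fold change was 1.06 with nApoE4 (SE 0.10, edgeR adjusted p = 1.35e-05) and 1.26 with nApoE3 (SE 0.025, edgeR adjusted p = 4.50e-13). ControlA replicate 2, the library that stands apart, had the highest Casp1 of its group, and without it the nApoE4 value was 1.17.

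Casp4 encodes caspase-11, the protease of the non-canonical pathway. Its level was 14.3, 17.3 and 14.9 CPM in ControlA and 124.5, 123.5 and 130.7 CPM in ApoE4. In ControlB it was 13.3, 13.8 and 15.8 CPM, and in ApoE3 120.1 and 120.3 CPM. The control libraries of both experiments shared a range, and every treated library stood far above all of them. The log2 fold change was 3.03 with nApoE4 (SE 0.079, edgeR adjusted p = 2.17e-09), or 8.18-fold, and 3.07 with nApoE3 (SE 0.050, edgeR adjusted p = 9.81e-14), or 8.42-fold. Without ControlA replicate 2 the nApoE4 value was 3.11. Reads that fit both paralogues equally would have been left out as multi-mapped, a class that made up 11.7 to 13.2% of all tallied reads.

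Gsdmd (Entrez 69146, chr15:75862144-75867408, plus strand) encodes gasdermin D, the substrate of both caspases and the executor of pyroptosis. Its level was 102.8, 118.6 and 97.5 CPM in ControlA and 133.5, 123.6 and 133.2 CPM in ApoE4. In ControlB it was 88.1, 85.5 and 89.2 CPM and in ApoE3 119.3 and 118.8 CPM. The groups did not overlap, although the gap between the highest ControlA and the lowest ApoE4 library was narrow. The log2 fold change was 0.30 with nApoE4 (SE 0.078, edgeR adjusted p = 0.00913) and 0.44 with nApoE3 (SE 0.028, edgeR adjusted p = 2.62e-08), which is 1.23-fold and 1.35-fold. The highest ControlA library was again replicate 2, and without it the nApoE4 value was 0.38 (edgeR adjusted p = 0.000117).

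Per kilobase of exon, the order of the members changed with treatment. In ControlA the mean levels were 56.3 ± 5.81 CPM per kilobase (SD, n = 3) for Gsdmd, 37.4 ± 5.28 for Casp1, 11.98 ± 0.458 for Nlrp3, 10.6 ± 1.10 for Casp4, 2.44 ± 0.101 for Nlrc4 and 0.0389 ± 0.0311 for Pycard. In ApoE4 Nlrp3 was the highest, at 147 ± 4.32 CPM per kilobase (SD, n = 3), and was followed by Casp4 at 86.7 ± 2.68, Casp1 at 77.6 ± 6.11, Gsdmd at 68.9 ± 2.99, Nlrc4 at 1.58 ± 0.0948 and Pycard at 0.0295 ± 0.0123. Nlrp3 and Casp4 thus ranked below Gsdmd and Casp1 in ControlA and above them in ApoE4. In ControlB the means were 52.7 for Casp1, 46.4 for Gsdmd, 9.81 for Casp4 and 8.78 for Nlrp3, and in ApoE3 they were 129 for Nlrp3, 127 for Casp1, 82.6 for Casp4 and 63.0 for Gsdmd, all in CPM per kilobase. The ranges of Nlrp3 and Casp4 overlapped in both control groups, although within a library Casp4 was the higher in 3 of 3 ControlB libraries. The exon lengths are unions of GENCODE exons of protein-coding transcripts, and close neighbours could change places with another transcript model.

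**Figure D2:**
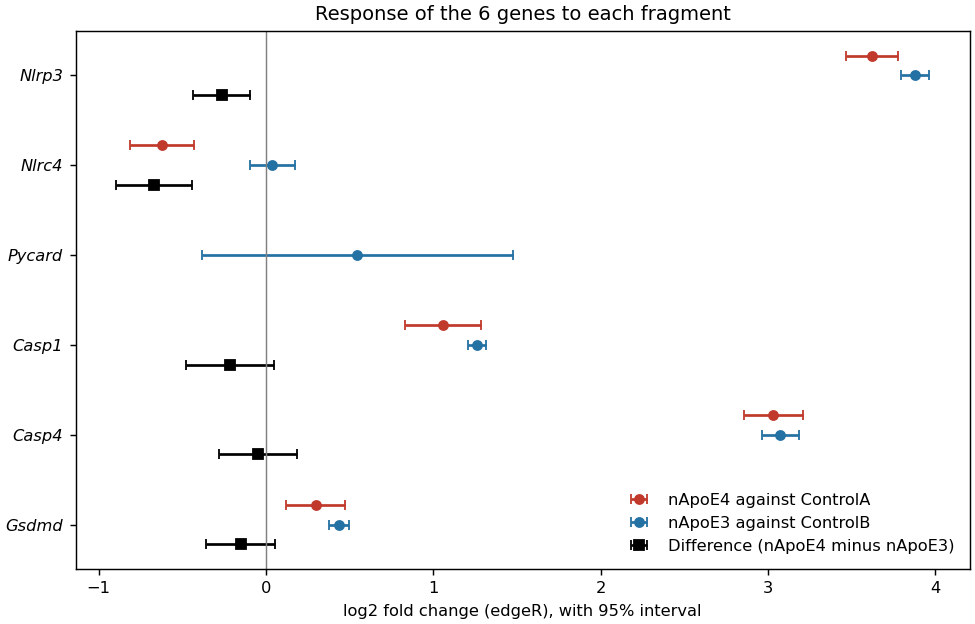
Log2 fold change in edgeR (x axis) of the 6 genes (y axis) with nApoE4 against ControlA (red circles), with nApoE3 against ControlB (blue circles) and the difference between these changes (black squares), with 95% intervals. The intervals of the difference lie below 0 for Nlrp3 and Nlrc4 and include 0 for Casp1, Casp4 and Gsdmd, and Pycard has a value with nApoE3 alone.

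The difference of the fragments' changes, each against its own controls, was tested in a fit of all 11 samples. Each fragment had its own experiment, so this contrast cannot tell the single amino acid from the experiment. Of the 5 members tested, 2 were called, both lower with nApoE4, where 28.3% of 15287 genes were called (13.9% lower). Nlrc4 differed by -0.67 on the log2 scale (95% interval -0.89 to -0.44, edgeR adjusted p = 0.000389). Nlrp3 differed by -0.26 (interval -0.44 to -0.094, edgeR adjusted p = 0.0237), and this call was lost under 7 of 16 other fits, with adjusted p up to 0.0832. For Casp1 the difference was -0.22 (interval -0.48 to 0.050, edgeR adjusted p = 0.221), for Gsdmd -0.15 (interval -0.36 to 0.056, edgeR adjusted p = 0.273) and for Casp4 -0.050 (interval -0.28 to 0.18, edgeR adjusted p = 0.779). For Casp4 these limits allow a difference of up to 0.28 on the log2 scale, against a rise of about 3 with either fragment. Without ControlA replicate 2 the differences were -0.092 for Casp1, -0.064 for Gsdmd and 0.036 for Casp4, and Nlrp3 and Nlrc4 kept their calls.

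The controls of the experiments differed as well. Casp1 was higher in ControlB than in ControlA by 0.48 on the log2 scale (edgeR adjusted p = 0.00148), Nlrp3 was lower by 0.46 (log2 difference -0.46, edgeR adjusted p = 0.000221) and Gsdmd was lower by 0.30 (log2 difference -0.30, edgeR adjusted p = 0.00636), where 69.3% of 14249 genes were called (34.4% higher and 34.9% lower). Nlrc4 (0.15, adjusted p = 0.0893) and Casp4 (-0.13, adjusted p = 0.230) did not pass in edgeR. Without ControlA replicate 2 the differences were 0.60 for Casp1, -0.49 for Nlrp3, -0.21 for Gsdmd and -0.048 for Casp4, with the same calls. The absolute level reached by Nlrp3 was higher with nApoE4 and its change from the controls was larger with nApoE3, so the order of the fragments turns on whether the level or the change is read. For Casp1, both the level and the fitted change were higher with nApoE3. The part of the unequal controls in the difference between fragments was not tested.

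Ratios of counts within a library do not depend on scaling between libraries. Counts of Casp4 per count of Casp1 were 0.278 ± 0.0106 (SD, n = 3) in ControlA and 1.09 ± 0.0629 (SD, n = 3) in ApoE4, and 0.181 ± 0.0143 (SD, n = 3) in ControlB and 0.632 and 0.634 in the ApoE3 libraries. The ratio was thus several times higher in every treated library than in any control of its experiment. Counts of Nlrp3 per Casp1 moved in the same direction, from 0.882 ± 0.143 to 5.17 ± 0.566 (SD, n = 3 each) with nApoE4 and from 0.452 ± 0.0244 (SD, n = 3) to 2.76 and 2.77 with nApoE3. Counts of Casp1 per Gsdmd were 0.525 ± 0.0280 in ControlA and 0.892 ± 0.0374 in ApoE4, close to the 0.901 ± 0.0131 of ControlB (SD, n = 3 each), and 1.59 and 1.60 in ApoE3. Counts of Nlrp3 per Nlrc4 rose from 4.15 ± 0.211 to 78.6 ± 2.44 with nApoE4 (SD, n = 3 each) and from 2.71 ± 0.145 (SD, n = 3) to 37.3 and 40.2 with nApoE3. The ratios are not corrected for gene length and compare groups, not genes.

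**Figure D3:**
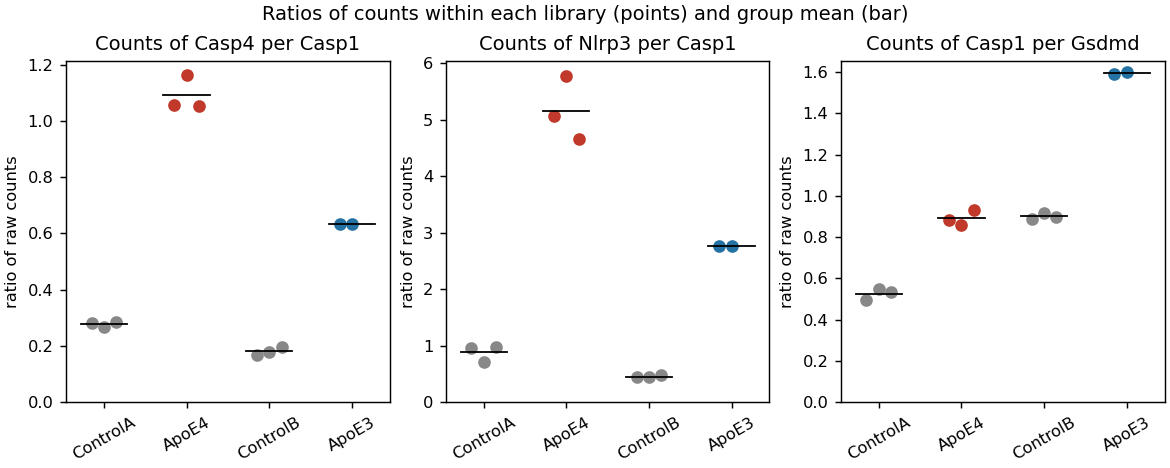
Ratio of raw counts within each library (points) with the group mean (line), for Casp4 per Casp1, Nlrp3 per Casp1 and Casp1 per Gsdmd, on linear axes that start at 0. The treated libraries lie above the controls of their own experiment in each panel, and for Casp1 per Gsdmd the ControlB libraries reach the level of ApoE4.

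Among 9751 genes with a mean of at least 5 CPM, those whose log2 level followed each member most closely over the 11 samples were listed by Pearson's r, as a description in which all samples of a group share treatment and experiment. For Nlrp3 they were Nod2 (r = 0.999), Tarm1 (0.998) and Usp53 (0.998), and for Casp4 they were Sdc4 (0.999), Snx20 (0.998) and Gbp2 (0.998). For Casp1 they were Mrpl39 (r = 0.998), Azi2 (0.996) and Kcmf1 (0.994). Gsdmd was followed most closely by Med10 (r = 0.989), Cdipt (0.985) and Tbrg1 (0.983), and Nlrc4 by Tmem55a (0.977), Pced1b (0.976) and Cstf1 (0.975). Nlrp3 and Casp4 followed each other at r = 0.996.

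A wider list of 51 genes of the same pathway, all found in the files, placed the members among other sensors, proteases, cytokines, activators, inhibitors and repair genes. With nApoE4, 43 could be tested, of which 17 were higher, 17 were lower and 9 were not called, beside 28.6% of all genes in each direction, with a median log2 fold change of 0.097. With nApoE3, 22 of 43 were higher, 14 were lower and 7 were not called, beside 33.1% and 34.6% of all genes, with a median of 0.11. The medians lay near 0, as those of all genes tested did, over genes that moved far in either direction. In the difference between fragments, 4 of 43 were higher with nApoE4, 13 were lower and 26 were not called, beside 14.4% and 13.9% of all genes. The values below are log2 fold changes with nApoE4 and then with nApoE3.

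Among 12 other sensors, 9 were tested, of which 2 were higher and 4 lower with each fragment. Over all genes tested, 28.6% were higher and 28.6% lower with nApoE4, and 33.1% and 34.6% with nApoE3. Naip2, which detects the rod protein of bacterial secretion systems upstream of NLRC4, rose by 0.56 and 0.65, while its relative Naip1 changed by -0.98 and -0.92. The flagellin sensor Naip5 was not called (0.22 and -0.048), nor was Naip6, so the NAIP partners of Nlrc4 did not move as a unit. Reads shared among these near-identical genes are not counted, which makes their values uncertain. Nlrp10 fell most, from 24.1 to 26.8 CPM in ControlA to 3.95 to 4.73 CPM in ApoE4 and from 11.02 to 13.1 CPM in ControlB to 4.30 to 4.62 CPM in ApoE3 (-2.54 and -1.45). Nlrp1b, the sensor of protease activity, changed by -0.83 and -1.05, and Aim2, the sensor of cytosolic DNA, whose locus overlaps Cadm3, by -0.30 and -0.10, the latter lost under 2 of 11 other fits. Mefv, the gene of pyrin, had 0 to 2 counts in all controls and 11 to 21 in treated libraries. The mean of its treated libraries was 6.00 times the floor of 3 counts per library with nApoE4 and 7.17 times with nApoE3.

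Of 8 other caspase, gasdermin and membrane-rupture genes, 5 were tested, of which 2 were higher and 3 lower with nApoE4 and 2 were higher and 1 lower with nApoE3. The shares of all genes were 28.6% higher and 28.6% lower with nApoE4, and 33.1% and 34.6% with nApoE3. Ninj1, which ruptures the plasma membrane at the end of pyroptosis, rose by 1.28 and 1.20, from 104 to 129 CPM in ControlA to 271 to 286 in ApoE4 and from 77.4 to 81.2 in ControlB to 182 to 185 in ApoE3. Casp8, which can cleave gasdermin D when other routes are blocked, fell with nApoE4 (-0.33) and was not called with nApoE3 (0.067, edgeR adjusted p = 0.0629), although 4 of 11 other fits called it higher. Gsdme, another pore-forming gasdermin, listed in the files as Dfna5, fell by 0.88 on the log2 scale with nApoE4 and was not called with nApoE3 (0.20). For both genes the difference between the fragments was called, at -0.41 (edgeR adjusted p = 0.000470) for Casp8 and -1.09 (edgeR adjusted p = 7.20e-05) for Gsdme. Casp12, Gsdma and Gsdmc had too few counts to be tested.

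Of 5 genes of inflammasome-linked cytokines and their antagonists, 4 were higher with nApoE4 and 5 with nApoE3, beside 28.6% and 33.1% of all genes, the exception being Il18bp, the gene of the interleukin-18 binding protein, with nApoE4 (0.28, edgeR adjusted p = 0.260). Il1b was at 0.964 to 1.10 CPM in ControlA and 203 to 235 CPM in ApoE4, and at 1.49 to 2.55 CPM in ControlB and 344 and 375 CPM in ApoE3, a change of 7.76 and 7.503. Il18, the other cytokine matured by caspase-1, started from 9.499 to 10.6 CPM in ControlA and rose by 1.60 and 1.496. Il1a rose by 4.31 and 5.39 and the receptor antagonist Il1rn by 3.66 and 4.61. The differences between fragments were -1.09 for Il1a (edgeR adjusted p = 0.0219, lost under 3 of 16 other fits) and -0.95 for Il1rn (edgeR adjusted p = 4.36e-05). Counts of Il1b per Casp1 were 0.0187 ± 0.00298 in ControlA and 1.92 ± 0.0280 in ApoE4 (SD, n = 3 each), and 0.0252 ± 0.00649 (SD, n = 3) in ControlB and 1.81 and 1.97 in ApoE3. Il1b lies opposite Il1bos, Il18 overlaps Bco2 and Tex12, and Il1a overlaps Gm14023, and without a stated strand setting their reads cannot be told apart.

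Of 12 activators and licensing factors, 11 were tested, of which 5 were higher and 5 lower with nApoE4 and 7 were higher and 3 lower with nApoE3. Beside them, 28.6% of all genes were higher and 28.6% lower with nApoE4, and 33.1% and 34.6% with nApoE3. The guanylate-binding protein genes Gbp5 and Gbp2, whose products promote inflammasome activation by bacteria, had 0.112 to 0.390 CPM and 1.35 to 1.88 CPM in controls and 67.7 to 89.2 CPM and 247 to 313 CPM in treated libraries. Their changes were 9.37 and 8.13 for Gbp5 and 7.74 and 7.37 for Gbp2. Gm12250, which encodes the GTPase Irgb10, had 0 or 1 count in ControlA and 25 to 32 in ApoE4, whose mean was 9.602 times the floor of 3 counts. With nApoE3 it rose by 5.90 from 1 to 7 counts in ControlB, a value that other fits moved between 5.46 and 6.63, the highest without ControlB replicate 3. Nek7, the kinase that binds NLRP3 for its activation, changed by -0.19 and -0.55, and the nApoE4 call was lost under 2 of 12 other fits. Panx1, which forms a channel linked to potassium efflux, was called in opposite directions, at -0.38 (edgeR adjusted p = 0.00136) and 0.18 (edgeR adjusted p = 0.00184). Txnip had 0 counts in every library. Its locus overlaps Gm15441, which had 16 to 61 counts, so its 0 is not read as a level.

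Of 7 inhibitors, 6 were tested, and 3 were higher and 3 lower with each fragment. Among all genes tested, 28.6% were higher and 28.6% lower with nApoE4, and 33.1% and 34.6% with nApoE3. Tnfaip3, the ubiquitin-editing enzyme A20, rose by 3.71 and 4.07. Trim30a, which restrains NLRP3, rose by 2.62 and 1.31 from unlike starting levels, 9.74 to 11.9 CPM in ControlA and 87.0 to 99.2 CPM in ControlB. Pydc4 had 0 to 5 counts in controls and 12 to 28 in treated libraries. With nApoE3 the mean of its libraries, at 12 and 28 counts, was 7.28 times the floor, a ratio that leaves out their spread. Over all fits its log2 fold change with nApoE3 ranged from 3.15 to 5.19. The 3 inhibitors that fell, which the naming rule does not reach, changed by -1.24 to -0.75 with nApoE4 and by -0.73 to -0.43 with nApoE3. The 7 genes of the ESCRT-III machinery, which repairs membrane damaged by gasdermin pores, had 1 gene higher and 2 lower with nApoE4 and 3 higher and 3 lower with nApoE3, none by more than 2-fold, beside 57.2% and 67.7% of all genes called. Their named members were Chmp4b (0.22 and 0.39, the first lost under 6 of 12 other fits), Chmp1a (-0.35 and -0.17) and Vps4a (-0.41 and -0.48).

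**Figure D4:**
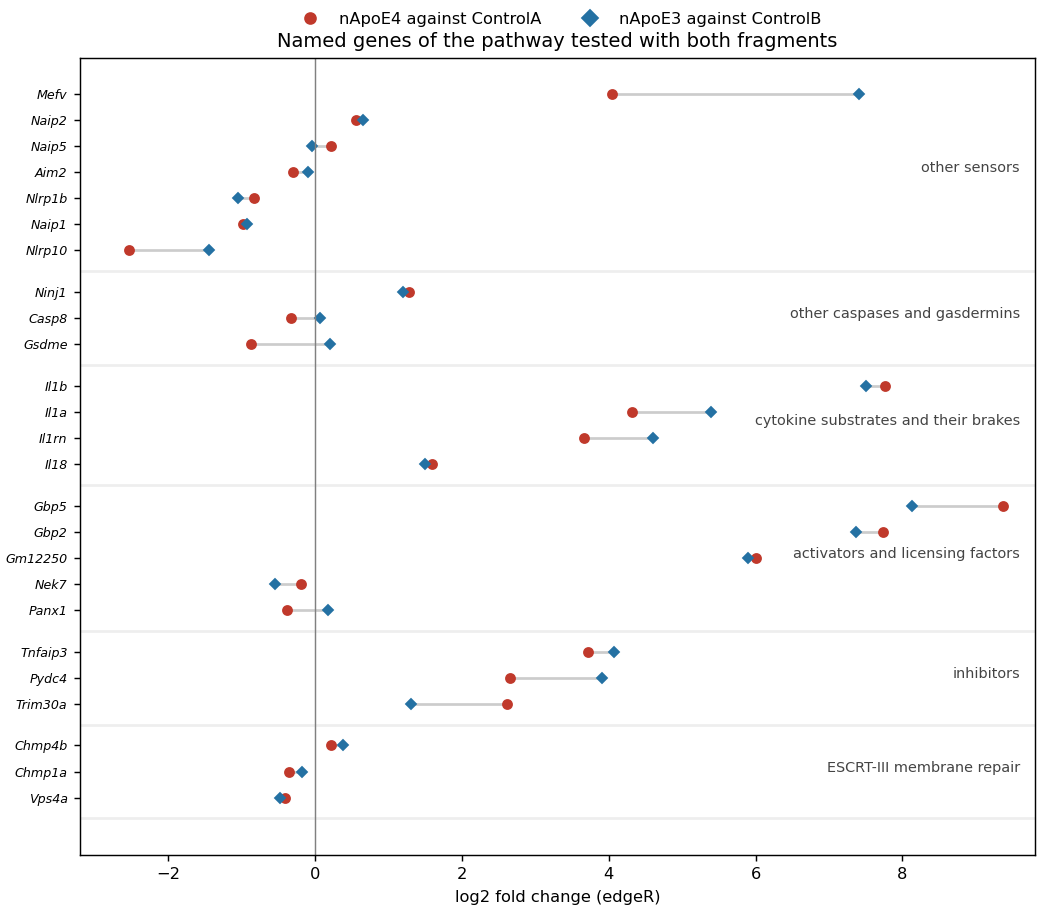
Log2 fold change in edgeR (x axis) with nApoE4 against ControlA (red circles) and nApoE3 against ControlB (blue diamonds) for 25 named genes of the wider list tested with both fragments, grouped by role, with a grey line between the values of a gene. Guanylate-binding protein genes and Il1b lie farthest to the right and the ESCRT-III genes lie near 0. The points of Mefv, Gm12250 and Pydc4 depend on the prior count, since some control libraries had no counts.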

How the data were processed

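Total RNA of 11 BV2 samples in 4 groups was sequenced by the authors as single-end reads. Per the labels and the study's methods, the authors trimmed reads with Trim Galore 0.5.0, checked them with FastQC 0.11.8, mapped them to GRCm38.p6 with HISAT2 2.1.0 and deposited raw HTSeq 0.11.0 counts per gene, without normalization. The annotation release, strand setting and overlap mode are not given in the sources used here. The tally lines that name no gene were left out, so that 76.0 to 77.7% of all tallied reads, unmapped reads included, entered library sizes.

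Counts were fitted in R 4.3.3 with edgeR 4.0.16 over the whole table (filterByExpr, TMM, quasi-likelihood F test, Benjamini-Hochberg adjustment, adjusted p under 0.05), each fragment against its own controls. The difference of the changes was tested over 4 group means, and ControlB against ControlA in a fit of their own. SEs are the size of the log2 fold change over the square root of F, and intervals are 95%. Groups came from the sample labels. Levels are CPM with TMM factors over all libraries, and sums over markers are CPM without them. Alternatives were DESeq2 1.42.0, edgeR with the size factors of DESeq2, a filter at 1 count in total, a filter at 10 counts per library, a joint fit of the 11 samples, a replicate block, a required fold change above 2, and leaving out each replicate. The fits were tested on simulated data.

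Positions and the upstream windows are from RefSeq (GRCm38.p6), and exon lengths are from GENCODE. The 6 members, the wider lists and the tests were chosen with earlier results of these data known. The wider genes named are, per role, the 3 with the largest change with nApoE4 among those called with both fragments, any called in opposite directions, and a fixed set central to the pathway. Some genes that this rule names are not reported here.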

Additional observations from a re-analysis of the deposited data

Results flagged for a closer look

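The changes of 2 members differed between the fragments by the test of the difference itself. For Nlrc4 the difference, nApoE4 minus nApoE3, was -0.67 on the log2 scale (edgeR adjusted p = 0.000389): the change was -0.62 with nApoE4 and 0.039 with nApoE3, lower than the control mean in 3 of 3 nApoE4 libraries. It kept its call in all 16 other fits, with values from -0.72 to -0.61, and lost it where a fold change above 2 was also required. For Nlrp3 the difference was -0.26 (edgeR adjusted p = 0.0237): both changes were large rises, 3.62 and 3.88, and the call was lost under 7 of 16 other fits and where a fold change above 2 was also required. ControlB held less Nlrp3 than ControlA, by a log2 difference of -0.46. Fragment and experiment cannot be told apart in either result. No group had more than 3 samples, so no gene's value in a single library was tested against the rest of its group.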

How the results depend on the processing

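Of 264 values of single members in other fits, 251 kept their direction and their side of the threshold, 7 lost the call, 2 gained it and 4 changed sign. The 7 lost calls were all of the difference in Nlrp3: with at least 1 count (-0.23, adjusted p = 0.0673), with the replicate block (-0.32, adjusted p = 0.0690) and without ApoE4 replicate 3, ControlB replicate 1, ControlB replicate 2, ApoE3 replicate 1 or ApoE3 replicate 2 (adjusted p from 0.0570 to 0.0832 in edgeR). The number of members with a called lower difference was therefore 1 in place of 2 with at least 1 count and with the block, and 1 to 2 when replicates were left out. Members higher in ControlB numbered 2 in place of 1 with all 11 samples in one fit and 1 to 2 when replicates were left out, Nlrc4 being the gain, without ControlB replicate 1. Requiring a fold change above 2 as well left 0 members lower with nApoE4, 0 in the difference and 0 in either direction between controls. On the wider list it left 4 of 17 lower with nApoE4, 14 of 22 higher and 2 of 14 lower with nApoE3, 4 of 13 lower in the difference, and 1 of 14 higher and 5 of 18 lower between controls, as fewer genes can pass both limits.

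Values that changed sign were uncalled in the comparison itself, and the cause was not tested. Over the main fit and all other fits, the change with nApoE3 ranged from -0.017 to 0.094 for Nlrc4 and from -0.14 to 0.023 for Naip5. The difference between fragments ranged from -0.13 to 0.036 for Casp4, -0.16 to 0.11 for Naip1, -0.0015 to 0.16 for Ninj1, -0.56 to 2.21 for Gm12250 and -2.47 to 0.60 for Pydc4, and Gbp2 between controls ranged from -0.0031 to 0.21. With the replicate block Naip5 was 0.023 and the difference in Gm12250 was -0.55. Same-numbered samples had correlations of deviations from -0.171 to -0.00772 over 15287 genes, ControlA against ControlB included. These are deviations from means of 2 or 3 samples, so they cannot settle whether samples were paired. The block lowered the genes called in the difference from 2208 higher and 2123 lower to 1150 and 1157. Depth limits Pycard in all groups and Mefv, Pydc4 and Gm12250 in the controls, where counts lie near the floor of 3.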

Other observations

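Among the untreated samples, the other inflammasome sensors were lower in ControlB than in ControlA. All 7 that could be tested were called lower, where 34.9% of all genes were, with a median log2 difference of -0.96. They included Naip1 (-1.13), Naip5 (-1.12), Nlrp10 (-1.09), Nlrp1b (-0.96), Naip2 (-0.84) and Aim2 (-0.34), each with an edgeR adjusted p of at most 0.000981. Naip6, named after its value was seen, was the other (-0.79). The Naip genes are near-identical relatives whose shared reads are not counted, so the 7 sensors are not independent of each other. Of the member sensors, Nlrp3 was lower (-0.46) and Nlrc4 was not called (0.15). Gsdme was lower in ControlB by a log2 difference of -1.54, and Trim30a was higher by 3.07, the widest gap among the wider genes tested. Il1b (0.93) and Il18 (0.26) were higher in ControlB. Experiment and any other difference between these untreated groups cannot be told apart.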
